A study of Mus musculus with 5 samples.

Results

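Transcript levels of 9 genes of the transforming growth factor beta (TGF-beta) and activin branch were followed in embryonic mouse forelimb. The genes encode ligands (Tgfb1, Tgfb2, Tgfb3, Inhba, Inhbb), antagonists and follistatin-domain proteins (Fst, Fstl1) and matrix proteins (Tgfbi, Ltbp1). They were taken by symbol, and all 9 were found among the 23284 gene symbols of the deposited tables. There were 5 libraries in 3 groups. The mutant group (2 libraries) was the distal forelimb at embryonic day E11.5 from Hoxa13-/-;Hoxd13-/- embryos on a mixed C57BL/6 and CD1 background. In these embryos a neomycin cassette interrupts the Hoxa13 coding sequence and lacZ sits in the first Hoxd13 exon, in every cell of the embryo. The wild-type group (2 libraries) was the same dissected E11.5 tissue on the same mixed background. The E10.5 group (1 library) was forelimb bud with the strain label CD1, so stage, dissected part and strain label differed together from the E11.5 groups. Each E11.5 library was a separate pool of micro-dissected tissue (N = 4 in the protocol, without saying whether per pool).

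TGF-beta ligands are secreted as latent complexes in which the latency peptide is bound to a latent TGF-beta binding protein such as LTBP1, which anchors the complex in the matrix until integrins or proteases release the ligand. Activins are dimers of the beta subunits encoded by Inhba and Inhbb, and follistatin, the Fst product, wraps around them and blocks receptor binding. Both ligand types signal through type II and type I receptor kinases to SMAD2 and SMAD3, which act with SMAD4. In the limb bud, TGF-beta signals are known for roles in cartilage condensation, tendon progenitors and joint formation, and activin A is known for its activity in the digit-forming mesenchyme.

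Reads counted in genes totalled 59837137 and 48303512 in the mutant, 45115494 and 55842997 in wild type and 84172202 at E10.5. Hoxd13 measured 47.7 and 40.0 CPM (each gene's count scaled to the library's total of reads in genes) in the mutant, against 247 and 246 CPM in wild type. Hoxa13 measured 48.0 and 39.8 CPM in the mutant and 50.8 and 47.2 CPM in wild type, and since its allele is an insertion, reads elsewhere in the transcript can remain, so this level does not check the labels. A list of 10 limb mesenchyme markers summed to 2124 and 2091 CPM in the mutant, 2016 and 1921 CPM in wild type and 1662 CPM at E10.5, and none of them was at 0. Of these 10 markers, 2 rose in the mutant against wild type (Prrx1 and Grem1) and 5 fell (Msx1, Twist1, Hand2, Lhx9 and Prrx2). Whole-bud or distal-bud RNA mixes cell types, so fewer cells of a type and less RNA per cell cannot be told apart in any value given here.

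Without HOX13, Tgfb2 rose 2.02-fold, while Inhba, Ltbp1 and Fst fell. Of the 9 genes, all of which passed the filter on low counts, 1 rose and 3 fell at an adjusted p below 0.05 (the quasi-likelihood test of edgeR, Benjamini-Hochberg over all 16166 genes tested), where 7.16% of all genes tested were called. The share of all genes that rose was 3.82% and the share that fell was 3.34%. The median log2 fold change (mutant over wild type) was 0.08 over the 9 genes and -0.00082 over all genes tested. Tgfb1, Tgfb3, Inhbb, Fstl1 and Tgfbi did not pass the test.

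**Figure D1:**
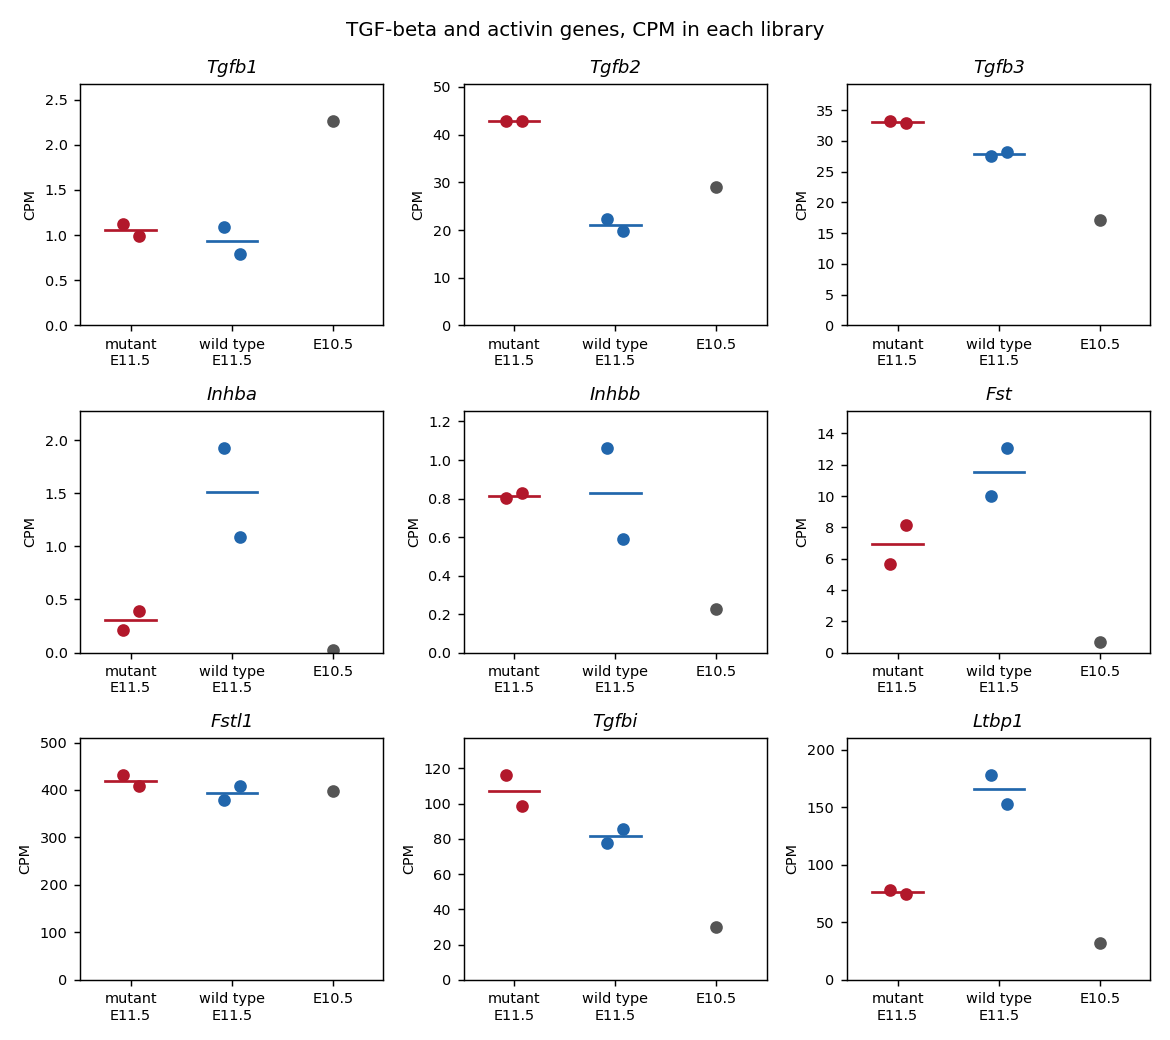
CPM of each gene (vertical axis from 0, a scale of its own in each panel) in the mutant and wild-type E11.5 libraries and the E10.5 library; points are libraries and lines are means of 2. The mutant points lie above the wild-type points for Tgfb2 (43.0 and 42.8 against 22.3 and 19.8 CPM) and below them for Inhba, Fst and Ltbp1.

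The promoters of 3 of the 4 changed genes are shown because they are the start regions of the transcripts whose levels moved. Windows of 300 bases, from 250 bases before to 50 after the gene start, were taken from RefSeq (GRCm38.p6), which held 8 windows for 7 of the 9 genes. Those of Tgfb2 (chr1:186705940-186706239, minus strand), Inhba (chr13:16011601-16011900, plus strand) and Ltbp1 (upstream start chr17:75005279-75005578 and downstream start chr17:75178531-75178830, both plus strand) read 5′ to 3′ as follows. Capitals mark matches on either strand to CAATAAA (a core of HOX13 binding sequences), CAGAC (a SMAD-binding element) or TATAAA (the TATA box).
Tgfb2: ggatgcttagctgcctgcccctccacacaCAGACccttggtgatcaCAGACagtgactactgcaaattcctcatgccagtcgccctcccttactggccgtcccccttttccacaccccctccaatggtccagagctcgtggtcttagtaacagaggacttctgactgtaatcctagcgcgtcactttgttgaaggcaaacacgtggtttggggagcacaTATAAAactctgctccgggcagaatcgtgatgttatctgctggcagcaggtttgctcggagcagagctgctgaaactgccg
Inhba: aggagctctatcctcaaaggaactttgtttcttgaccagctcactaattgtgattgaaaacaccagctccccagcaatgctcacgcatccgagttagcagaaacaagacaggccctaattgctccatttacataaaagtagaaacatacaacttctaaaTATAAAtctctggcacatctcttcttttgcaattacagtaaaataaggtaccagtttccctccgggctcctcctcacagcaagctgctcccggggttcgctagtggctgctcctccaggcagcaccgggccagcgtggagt
Ltbp1 upstream start: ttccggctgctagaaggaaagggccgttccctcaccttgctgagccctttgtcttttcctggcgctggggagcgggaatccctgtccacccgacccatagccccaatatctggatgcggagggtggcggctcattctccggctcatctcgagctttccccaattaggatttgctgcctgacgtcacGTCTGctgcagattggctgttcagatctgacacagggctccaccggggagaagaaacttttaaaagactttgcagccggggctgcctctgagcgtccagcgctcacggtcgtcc
Ltbp1 downstream start: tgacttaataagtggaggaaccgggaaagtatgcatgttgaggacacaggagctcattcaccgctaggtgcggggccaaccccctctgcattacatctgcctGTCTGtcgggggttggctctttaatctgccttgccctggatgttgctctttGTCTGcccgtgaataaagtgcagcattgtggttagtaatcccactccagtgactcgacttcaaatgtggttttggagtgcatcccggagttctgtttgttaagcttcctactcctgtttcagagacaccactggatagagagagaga

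The Tgfb2 window held 2 matches to CAGAC and a TATAAA that starts 31 bases before the gene start. The Inhba window held TATAAA with its first base 91 before the start and no CAGAC. The Ltbp1 windows held 1 and 2 matches to CAGAC. No window of the 7 genes held CAATAAA, which is present in 4.60% of the 32851 windows of the whole table, against 49.6% for CAGAC and 13.6% for TATAAA. A match describes letters in this window only.

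Among the TGF-beta ligands, Tgfb2, which is expressed in condensing mesenchyme, measured 43.0 and 42.8 CPM in the mutant, against 22.3 and 19.8 CPM in wild type. Both mutant libraries were above both wild-type libraries, and the means were 42.9 ± 0.124 CPM in the mutant and 21.0 ± 1.73 CPM in wild type (SD, n = 2 each). Tgfb2 rose 2.02-fold, or 1.01 ± 0.10 (SE) on the log2 scale, with an adjusted p of 8.29e-05 in edgeR. Its log2 fold change lay between 0.96 and 1.07 when any 1 of the 4 libraries was left out.

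Tgfb3, the ligand best known in palate, tendon and joint mesenchyme, measured 33.3 and 32.9 CPM in the mutant and 27.6 and 28.1 CPM in wild type. The mutant libraries were again both above the wild-type ones, but the log2 fold change of 0.23 (SE 0.10) had an adjusted p of 0.216 by the edgeR test. Tgfb1, a ligand expressed in endothelial and blood cells as well as mesenchyme, was near the lower end of what was counted, with 67 and 48 reads in the mutant and 49 and 44 reads in wild type. That is 1.12 and 0.994 CPM in the mutant and 1.09 and 0.788 CPM in wild type, groups that overlap, at 0.17 ± 0.33 (SE) on the log2 scale and an adjusted p of 0.844 in edgeR.

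To set the 3 ligands beside each other, CPM was divided by the merged exon length in kilobases of the GENCODE vM21 models (RPKM), whose exons may differ from those the authors counted. Summed over Tgfb1, Tgfb2 and Tgfb3, the level was 17.5 and 17.3 RPKM in the mutant, 12.2 and 11.9 RPKM in wild type and 10.54 RPKM at E10.5. Tgfb2 made up 42.4% and 42.7% of that sum in the mutant, 31.5% and 28.8% in wild type and 47.5% at E10.5. Tgfb3 made up 56.3% and 56.2% in the mutant, 66.7% and 69.9% in wild type and 48.2% at E10.5, and so was the most abundant of the 3 per length in all 5 libraries, narrowly so at E10.5 (5.08 RPKM for Tgfb3 and 5.004 RPKM for Tgfb2). Tgfb1 never exceeded 4.27% of the sum.

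**Figure D2:**
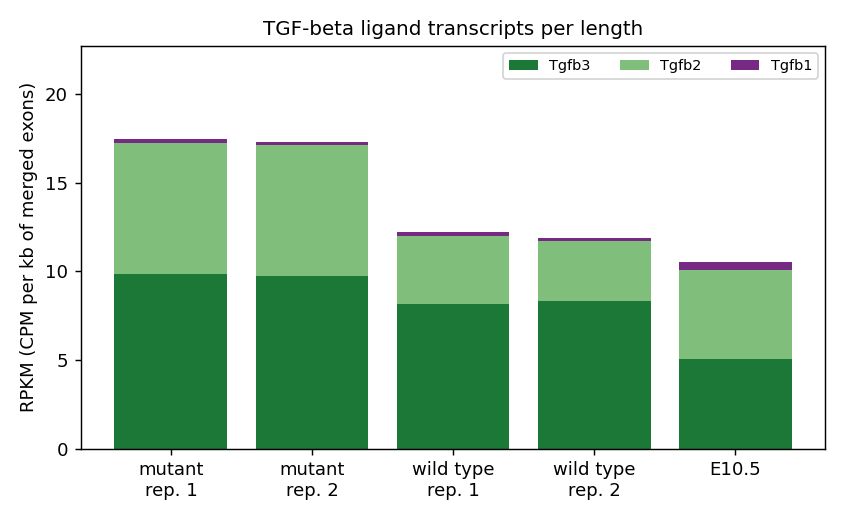
RPKM (CPM per kilobase of merged exons, vertical axis from 0) of Tgfb1, Tgfb2 and Tgfb3, stacked in each library. The mutant bars reach 17.5 and 17.3 RPKM and the wild-type bars 12.2 and 11.9 RPKM, and the Tgfb2 segment is the one whose height differs most between genotypes.

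The activin subunit genes were measured from few reads. Inhba, which encodes the beta A subunit of activin A, had 13 and 19 reads in the mutant, against 87 and 61 reads in wild type, or 0.217 and 0.393 CPM in the mutant, against 1.93 and 1.09 CPM in wild type. The groups did not overlap, although the wild-type libraries differed widely from each other. Inhba fell by 2.32 on the log2 scale (SE 0.43, adjusted p = 0.00616 by the edgeR test), and its level in wild type was 5.005 times that in the mutant. The log2 fold change lay between -2.78 and -1.90 when 1 library was left out. Inhbb, which encodes the beta B subunit, had 0.802 and 0.828 CPM in the mutant, inside the wild-type values of 1.06 and 0.591 CPM, at -0.016 ± 0.38 (SE) on the log2 scale and an adjusted p of 0.990 in edgeR. Per length, Inhba was 15.3% and 24.0% of the summed RPKM of both subunit genes in the mutant, 54.7% and 55.2% in wild type and 6.55% at E10.5, the last from 2 Inhba reads.

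Fst, which encodes the activin antagonist follistatin, measured 5.67 and 8.18 CPM in the mutant, against 10.02 and 13.1 CPM in wild type. Both mutant libraries were below both wild-type libraries, and the distance between the nearest of them was smaller than the distance between the 2 libraries of either genotype. Fst fell by 0.76 on the log2 scale (SE 0.20, adjusted p = 0.0384 by the edgeR test). This call ended without mutant replicate 1 (-0.52, adjusted p = 0.207), without wild-type replicate 2 (-0.53, adjusted p = 0.104), with total-count scaling (adjusted p = 0.0813) and with a filter of at least 1 CPM in at least 2 libraries (adjusted p = 0.0532). The RPKM of Fst was 36.3 and 28.9 times that of Inhba in the mutant and 7.23 and 16.7 times that of Inhba in wild type, so the antagonist transcript exceeded that of the ligand subunit in both genotypes. The multiple was higher in both mutant libraries than in both wild-type libraries, as a description without a test. In the mutant it rests on 13 and 19 Inhba reads. At E10.5 the multiple was 40.4, from 2 Inhba reads.

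Fstl1, which encodes a secreted follistatin-like glycoprotein of mesenchyme, had the highest level of the 9 genes per length (87.9 and 83.04 RPKM in the mutant, 77.3 and 82.96 RPKM in wild type and 81.1 RPKM at E10.5). In CPM it measured 432 and 408 in the mutant and 380 and 407.7 in wild type, at 0.08 ± 0.09 (SE) on the log2 scale and an adjusted p of 0.724 in edgeR. The lower mutant library and the higher wild-type library had nearly the same value.

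In the matrix group, Ltbp1, whose product stores latent TGF-beta on fibrillin microfibrils, measured 77.7 and 74.9 CPM in the mutant, against 178 and 153 CPM in wild type. Every mutant library was at or under 77.7 CPM and every wild-type library at or above 153 CPM, and the means were 76.3 ± 2.01 CPM in the mutant and 166 ± 18.0 CPM in wild type (SD, n = 2 each). Ltbp1 fell by 1.13 on the log2 scale (SE 0.09, adjusted p = 1.57e-05 by the edgeR test), the smallest adjusted p of the 9, and the level in wild type was 2.19 times that in the mutant. With any 1 library left out the log2 fold change lay between -1.21 and -1.04.

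Tgfbi, which encodes a TGF-beta-induced adhesion protein of the matrix, measured 116 and 98.5 CPM in the mutant and 77.7 and 85.5 CPM in wild type. Both mutant libraries were above both wild-type libraries, and the log2 fold change of 0.38 (SE 0.11) had an adjusted p of 0.0521 by the edgeR test, just outside the threshold. It passed in DESeq2 (adjusted p = 0.0287) and with no filter on low counts (0.00528). It also passed with the newer quasi-likelihood estimate (0.0477) and with a replicate block (0.0429). It did not pass with DESeq2 size factors (0.0569), total-count scaling (0.0569), the filter of 1 CPM (0.0536) or all 5 libraries in the fit (0.0616). With 1 library left out its log2 fold change ran from 0.25 to 0.50. In all, the CPM values of the genotypes did not overlap for 7 of the 9 genes, beside 49.5% of all genes tested.

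**Figure D3:**
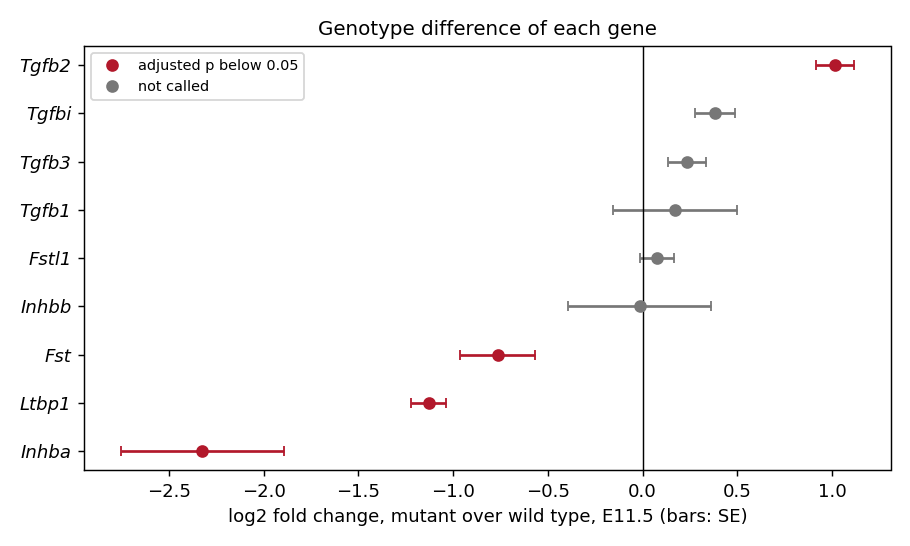
Log2 fold change of each gene in the mutant over wild type at E11.5 (horizontal axis, with bars for standard errors derived from the edgeR F statistic over 4 libraries), red where the adjusted p was below 0.05. Inhba (-2.32), Ltbp1 (-1.13) and Fst (-0.76) lie below 0 and Tgfb2 (1.01) above it, while Tgfb1, Inhbb and Fstl1 lie within 1 standard error of 0.

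Marker lists of other cell types were also compared between the genotypes. The sums of surface ectoderm and muscle lineage markers overlapped between them, and those of platelet and megakaryocyte markers nearly met. Of all genes tested, 7.16% were called, 3.82% as risen and 3.34% as fallen. Cartilage condensation markers summed to 685 and 669 CPM in the mutant and 535 and 518 CPM in wild type, with 1 of 9 risen and 1 fallen. Macrophage markers summed to 88.3 and 85.3 CPM in the mutant and 57.6 and 73.3 CPM in wild type, with 2 of 12 risen. Neuron and Schwann cell markers summed to 23.0 CPM in each mutant library and 44.8 and 49.0 CPM in wild type, with 2 of 11 fallen. Muscle lineage markers summed to 317 and 494 CPM in the mutant and 575 and 478 CPM in wild type, with 1 of 10 tested genes fallen. Apical ectodermal ridge markers summed to 74.2 and 74.9 CPM in the mutant and 60.5 and 50.7 CPM in wild type, with 3 of 9 risen (Fgf4, Fgf8 and Fgf17, the ridge growth factors) and 1 fallen (Sp6). Erythroid markers summed to 3024 and 2983 CPM in the mutant and 2410 and 2325 CPM in wild type, with 1 of 8 tested genes risen. Surface ectoderm markers summed to 316 and 337 CPM in the mutant and 336 and 348 CPM in wild type, with 2 of 10 fallen. Endothelial markers summed to 273 and 248 CPM in the mutant and 233 and 241 CPM in wild type, with 1 of 12 risen and 1 fallen, and platelet and megakaryocyte markers to 22.7 and 24.7 CPM in the mutant and 28.6 and 24.7 CPM in wild type, with 2 of 8 fallen. Of the genes on these lists, Hba-a1 of the erythroid list was at 0 in all 5 libraries and no other was, and the part of these cell types in the results for Tgfb2, Inhba, Fst and Ltbp1 was not tested.

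The rest of the pathway was read from 6 lists of 80 other genes, of which 74 were tested, 9 rose and 3 fell. Of all genes tested, 3.82% rose and 3.34% fell. The same shares stand beside the counts of the single lists below, which were chosen with earlier results of these data known. The median log2 fold change of the tested list genes was -0.04. Most core components had log2 fold changes near 0. Among the type I and II receptors Tgfbr1 had 0.02, Tgfbr2 0.04, Acvr1b -0.13, Acvr2a -0.26 and Acvr2b 0.03, with adjusted p of 0.949, 0.891, 0.608, 0.110 and 0.948 by the edgeR test. The signal transducers Smad2 (-0.14), Smad3 (-0.04) and Smad4 (0.09) had adjusted p of 0.374, 0.857 and 0.623.

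In the receptor list 1 of 10 tested genes rose and 0 fell. The gene was Tgfbr3, which encodes the co-receptor betaglycan that presents TGF-beta2 to its receptors. It measured 36.7 and 34.8 CPM in the mutant, against 22.9 and 25.2 CPM in wild type, and rose by 0.56 ± 0.11 (SE) on the log2 scale, with an adjusted p of 0.00814 in edgeR. Among the SMADs and their regulators 1 of 14 fell and 0 rose, namely Smad7, the inhibitory SMAD that the pathway itself induces. Smad7 measured 23.2 and 22.5 CPM in the mutant, against 35.4 and 27.3 CPM in wild type (-0.46 on the log2 scale, SE 0.12, adjusted p = 0.0406 in edgeR). The Smad7 call ended without each of the 4 libraries in turn except wild-type replicate 2, with -0.29 without wild-type replicate 1, and it ended with total-count scaling (0.0912) and with the filter of 1 CPM (0.0515).

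In the list of latency, storage and activation 2 of 14 genes rose and 0 fell. Lrrc32, whose product GARP tethers latent TGF-beta to the cell surface, measured 1.99 and 1.61 CPM in the mutant, against 0.643 and 0.430 CPM in wild type (1.75 on the log2 scale, SE 0.34, adjusted p = 0.00760 in edgeR). Itgav, the alpha V subunit of integrins that release TGF-beta from its latent complex, measured 234 and 215 CPM in the mutant, against 162 and 145 CPM in wild type (0.53, SE 0.09, adjusted p = 0.00279). For both genes all mutant libraries were above all wild-type libraries.

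Of 6 tested genes of other ligands of the branch and their relatives 1 rose and 0 fell. It was Lefty1, an inhibitor of Nodal signalling, with 25 reads in the mutant libraries together and 0 in wild type. Taking 3 reads over the wild-type group as the floor, the mutant level was at least 7.78-fold higher. Its adjusted p by the edgeR test was 0.0179, and the call ended without either wild-type replicate. DESeq2 gave it no adjusted p, and it did not pass the filter without mutant replicate 1 or the filter of 1 CPM. In the list of other antagonists 1 of 10 rose and 1 fell. Bgn, which encodes the TGF-beta-binding proteoglycan biglycan, measured 15.7 and 14.9 CPM in the mutant and 10.97 and 10.2 CPM in wild type (0.52, adjusted p = 0.0274, lost without either mutant replicate). Fstl5, a follistatin-like gene, measured 0.134 and 0.124 CPM in the mutant and 0.953 and 0.931 CPM in wild type (-2.86, SE 0.46, adjusted p = 0.00248).

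Genes known to respond to TGF-beta moved in both directions, with 4 of 20 risen and 1 fallen and a median log2 fold change of -0.13. Col1a1 (1.02) and Col1a2 (0.48), the collagen I chains, and Timp3 (0.43), an inhibitor of metalloproteases, were among those that rose, with adjusted p of 0.00695, 0.0153 and 0.0190 by the edgeR test. Col1a2 (adjusted p = 0.133) and Timp3 (0.131) missed the threshold without mutant replicate 1, Col1a1 missed it in DESeq2 (0.09998), and the log2 fold change of Col1a1 was 0.67 without wild-type replicate 2. Tagln, an actin-binding protein of contractile cells, measured 2.42 and 2.13 CPM in the mutant, against 5.28 and 6.20 CPM in wild type (-1.35, SE 0.21, adjusted p = 0.00170).

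**Figure D4:**
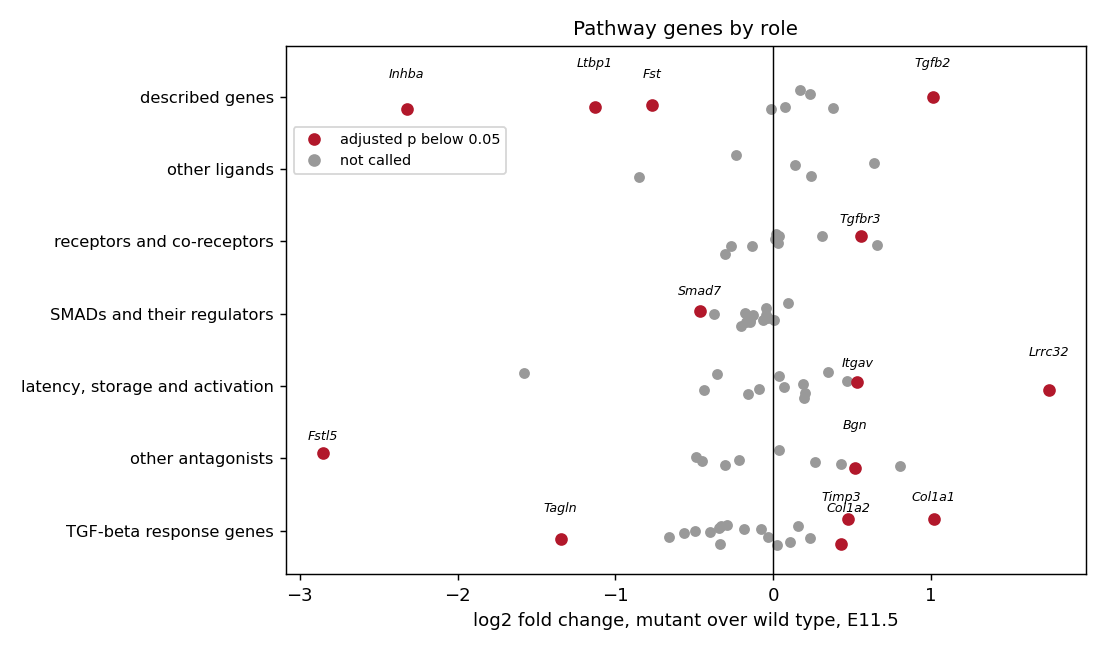
Log2 fold change of the tested genes in the mutant over wild type at E11.5 (horizontal axis), by role (rows; vertical scatter within a row has no meaning; Lefty1, at 0 in wild type, and the response gene that is not reported are not drawn), red and named where the adjusted p was below 0.05. The SMAD row is the narrowest, and the genes farthest from 0 are Inhba (-2.32), Fstl5 (-2.86) and Lrrc32 (1.75).

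The genes whose pattern over the 5 libraries was nearest to that of each changed gene were sought among 13593 tested genes with a mean of at least 1 CPM, by Euclidean distance of log2 CPM centred on each gene's mean. Nearest to Tgfb2 were Spa17 (0.138), Cetn4 (0.182) and Clec1b (0.192). Nearest to Ltbp1 were Adamts5 (0.258), Frmpd1 (0.304) and Gsn (0.307). Nearest to Fst were Krt17 (0.247) and Rprm (0.353). The neighbours of Inhba, namely 4930562C15Rik (0.511), Otor (0.628) and Wdr72 (0.961), were farther away. These distances rest on the same 5 libraries and describe them only.

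Stage, dissected part and strain label changed together between the wild-type E11.5 libraries and the E10.5 library, and cannot be told apart. In this comparison 5 of the 9 genes were at least 2-fold higher in both wild-type E11.5 libraries than in the E10.5 library. A further 1 was at least 2-fold lower in both. The rule was read on log2 CPM with TMM scaling and a prior count of 2. Of all 16738 genes described, 16.7% met this rule, 12.9% as higher and 3.86% as lower. The median difference (wild-type E11.5 minus E10.5) was 1.21 over the 9 genes and 0.02 over all. The E10.5 group has 1 library, so no difference from it has a replicate check, and exact intervals on its values cover counting error only. Plain CPM differs from the TMM scale here, since total-count scaling moved the median difference of all genes by 0.24.

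The ligand subunit Inhba and its antagonist Fst showed the widest differences from E10.5. Inhba had 2 reads at E10.5, or 0.0238 CPM (exact 95% interval 0.00288 to 0.0858), and a log2 difference of 4.55. With a prior count of 0.5 this difference was 5.31. On plain CPM, with the wild-type E11.5 libraries pooled (148 reads), the ratio to E10.5 was 61.7, with an exact 95% interval of 16.8 to 514. That interval covers counting error only and leaves out the spread between the wild-type libraries (1.93 and 1.09 CPM). Fst measured 10.02 and 13.1 CPM in wild-type E11.5 tissue, against 0.689 CPM at E10.5 (0.523 to 0.891), a log2 difference of 3.76. In the mutant, Inhba and Fst were between the wild-type and E10.5 levels without overlap.

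Ltbp1 measured 178 and 153 CPM in wild-type E11.5 tissue, against 32.4 CPM at E10.5 (31.2 to 33.6), a log2 difference of 2.11, and its mutant level also lay between the other groups. Tgfbi measured 77.7 and 85.5 CPM in wild type, against 30.0 CPM at E10.5 (28.9 to 31.2), a log2 difference of 1.21, with the mutant highest of the 3 groups. Inhbb had 1.06 and 0.591 CPM in wild type, against 0.226 CPM at E10.5 (0.136 to 0.353), a log2 difference of 1.46, and the mutant and wild type overlapped.

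The 3 TGF-beta ligands each had an order of their own. Tgfb1 was lower at E11.5, with 1.09 and 0.788 CPM in wild type, against 2.27 CPM at E10.5 (1.96 to 2.61), a log2 difference of -1.49. Tgfb2 measured 22.3 and 19.8 CPM in wild-type E11.5 tissue, against 29.0 CPM at E10.5 (27.8 to 30.1), and the mutant was above both. Its log2 difference between wild-type E11.5 and E10.5 was -0.70, under 2-fold. Tgfb3 was ordered mutant, wild type and E10.5, with 27.6 and 28.1 CPM in wild type, against 17.2 CPM at E10.5 (16.3 to 18.1) and a log2 difference of 0.46. On plain CPM, the E10.5 value of Fstl1 (398 CPM, interval 394 to 403) lay between its 2 wild-type values. On the TMM scale both wild-type libraries were below E10.5, by log2 differences of -0.32 and -0.18. Their mean was -0.25, or -0.017 with total-count scaling.

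**Figure D5:**
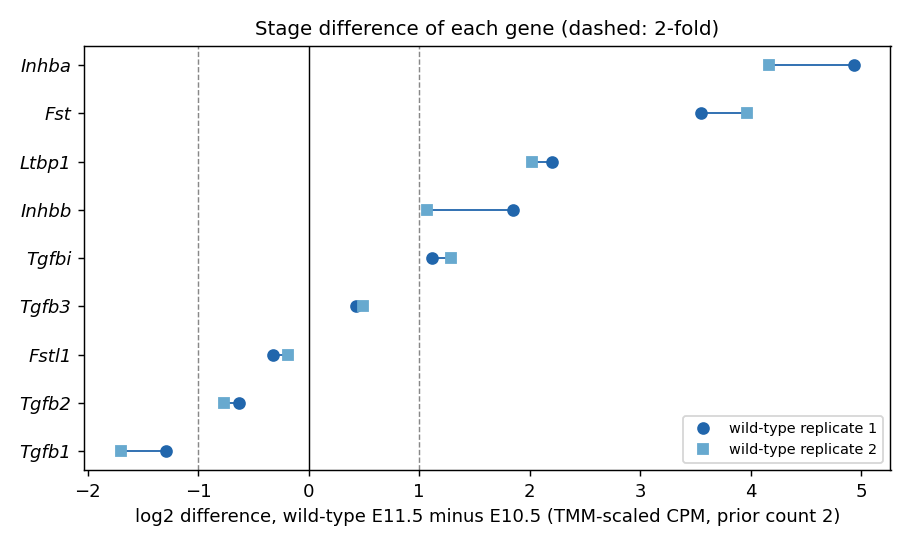
Log2 difference of each gene between each wild-type E11.5 library and the E10.5 library (horizontal axis, CPM scaled by TMM, prior count 2); circles and squares are the 2 wild-type replicates, and dashed lines mark 2-fold. Inhba, Fst, Ltbp1, Inhbb and Tgfbi lie beyond 2-fold on the higher side in both replicates and Tgfb1 on the lower side.

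Other genes of the pathway were mostly higher or within 2-fold at E11.5, with 16 of 74 higher and 1 lower. Of all genes described, 12.9% were higher and 3.86% lower by the same rule. The list of other antagonists held 6 of the 16 higher genes, out of 10 listed. Among them was decorin, Dcn, a TGF-beta-binding proteoglycan (8.42 and 10.1 CPM in wild-type E11.5 tissue, against 0.523 CPM at E10.5, a log2 difference of 3.83). Fstl5 (3.21) and Fstl4 (2.47) were others, but they measured 0.0594 and 0.0119 CPM at E10.5, so their differences rest on few reads there. Fstl4 was named after its value was seen. Cer1, an antagonist of Nodal and BMP, had 42 reads in the wild-type libraries and 0 at E10.5, at least 11.7-fold higher with 3 reads as the floor. In the list of latency and activation 4 of 14 were higher. They were Itgb6, an integrin subunit that activates TGF-beta (3.19), the latent TGF-beta binding proteins Ltbp3 (1.86) and Ltbp2 (1.34), and Thbs1, named after its value was seen (1.15). Acvr1c, a type I receptor, was the only receptor gene of 10 that met the rule. It measured 0.421 and 0.394 CPM in wild type, against 0.0713 CPM at E10.5, so its difference also rests on few reads there. Gdf3, a TGF-beta family ligand, was the only one of 6 other ligands that met the rule. It had 276 reads in the wild-type libraries and 0 at E10.5, at least 76.7-fold higher. None of the 14 SMADs and regulators met the rule. Of 20 response genes 4 were higher, namely smooth muscle actin Acta2 (4.64), the cell cycle inhibitor Cdkn2b (3.21), periostin Postn (2.03) and the transcription factor gene Snai2 (1.09), and Snai1 was lower (-1.34). Cdkn2b measured 0.0594 CPM at E10.5, so its difference also rests on few reads there. The call of Snai1 as lower ended with total-count scaling. Snai1 and Snai2 were named after their values were seen.

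Markers of other cell types also differed between wild-type E11.5 tissue and the E10.5 library. Stage, dissected part and strain label cannot be told apart in these differences. Muscle lineage markers summed to 575 and 478 CPM in wild-type E11.5 tissue, against 38.7 CPM at E10.5, with 6 of 10 genes higher and 1 lower. Macrophage markers summed to 57.6 and 73.3 CPM in wild type, against 18.4 CPM at E10.5, with 10 of 12 higher. Cartilage condensation markers summed to 535 and 518 CPM in wild type, against 294 CPM at E10.5, with 5 of 9 higher and 1 lower. Endothelial markers summed to 233 and 241 CPM in wild type, against 292 CPM at E10.5, with 3 of 12 lower. Erythroid markers summed to 2410 and 2325 CPM in wild type, against 3408 CPM at E10.5, with 3 of 8 lower. Apical ectodermal ridge markers summed to 60.5 and 50.7 CPM in wild type, against 80.03 CPM at E10.5, with 2 of 9 higher and 3 lower. Neuron and Schwann cell markers summed to 44.8 and 49.0 CPM in wild type, against 22.7 CPM at E10.5, with 3 of 11 higher and 1 lower. Surface ectoderm markers summed to 336 and 348 CPM in wild type, against 253 CPM at E10.5, with 1 of 10 higher, and platelet and megakaryocyte markers to 28.6 and 24.7 CPM in wild type, against 13.4 CPM at E10.5, with 2 of 8 higher. The part of these cell types in the differences of Inhba, Fst, Ltbp1, Tgfbi, Inhbb and Tgfb1 from E10.5 was not tested.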

How the data were processed

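The authors deposited raw read counts by gene symbol for 5 total RNA libraries. These were rRNA-depleted, strand-specific and read for 50 cycles from each end, per the labels' protocols. The submitters' processing notes name SAMtools, HTSeq, Cufflinks 2.1.1 and TopHat2 2.0.13, and the mm9 genome. The strand setting and annotation of the counting are not given in the sources used here. In GENCODE vM21, genes on the opposite strand share exon bases with Tgfb2 (124), Tgfb3 (163 and 257) and Fst (115), so these values could hold antisense reads. HTSeq total lines were left out of library sizes. They held between 24.3% and 39.6% of the sum as reads in no feature.

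Low-count genes were removed by filterByExpr (minimum count 10 and total 15). Counts were TMM-scaled and tested over the 4 E11.5 libraries with genotype as the term by the quasi-likelihood test of edgeR 4.0.16 in R 4.3.3, with Benjamini-Hochberg adjustment and a threshold of 0.05. DESeq2 1.42.0 was an alternative. SE belongs to the log2 fold change and was derived as its absolute value divided by the square root of the F statistic of the edgeR test. CPM uses gene totals. The members and gene lists were chosen with earlier results of these data known. Named genes were the 9 members, 10 core receptors and SMADs, and 3 nearest genes per called member. Per list they were the 6 called genes of smallest p and, against E10.5, the 3 of largest difference. A gene of the response list and a gene nearest to Fst are not reported here. Coordinates are of GRCm38.p6, not of mm9. Replicates of a genotype differed by more than sampling noise (chi-square per gene 12.5 in the mutant and 29.9 in wild type).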

Additional observations from a re-analysis of the deposited data

How the results depend on the processing

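Of 107 values of the 9 genes under 12 alternatives of the genotype test, 92 kept their direction and their side of the threshold (Inhbb did not pass the filter of 1 CPM in 2 libraries). The calls of Tgfb2, Inhba and Ltbp1 held under every one of the 12. The signs that turned were those of values near 0. Inhbb had 0.00018 with the newer quasi-likelihood estimate and 0.0066 with the replicate block. With 1 library left out, the log2 fold change ran from -0.020 to 0.38 for Tgfb1, -0.37 to 0.42 for Inhbb, -0.017 to 0.052 for Tgfbr1, -0.012 to 0.090 for Tgfbr2, -0.19 to 0.28 for Acvr2b and -0.13 to 0.037 for Smad3. With 1 library left in a group, that library is assumed to vary like the other group.

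Among the 9 genes 2 rose, in place of 1, in DESeq2, with no filter, with the newer estimate and with the replicate block, the added gene being Tgfbi, and 1 to 2 rose and 2 to 3 fell with 1 library left out. Over all genes 617 rose and 540 fell. With no filter 959 rose, and with 1 library left out 410 to 1113 rose and 373 to 905 fell, the highest of both without wild-type replicate 1. Of the pathway lists 5 to 14 rose (9 in the full fit) and 2 to 9 fell (3 in the full fit) with 1 library left out. The number fallen was 5 in DESeq2, 8 with no filter, 1 with the filter of 1 CPM, 5 with the newer estimate and 6 with the replicate block. Same-numbered replicates of the genotypes had deviations that correlated at -0.078. With 2 libraries per genotype this value cannot decide whether libraries were paired or shared a batch.

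Between wild-type E11.5 and E10.5, 3261 genes were higher and 1646 lower at 1.5-fold, in place of 2155 and 646 at 2-fold. Total-count scaling gave 412 lower, and 1 wild-type library alone gave 2454 to 2856 higher and 858 to 985 lower, since a difference then has to hold in only 1 library. Of the 9 genes 2 were lower at 1.5-fold, and 5 higher and 1 lower with either wild-type library alone. Of the pathway lists 16 to 17 were higher with 1 wild-type library, and the number lower was 0 with total-count scaling, 2 with a prior count of 0.5, 3 at 1.5-fold and 2 to 3 with 1 wild-type library. The causes of the other shifts were not tested. Depth limits Inhba, Inhbb and Tgfb1, whose counts in the E11.5 libraries were between 13 and 87, 33 and 48, and 44 and 67 reads.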
